A study of Mus musculus with 6 samples.

Results

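The antioxidant, glutathione and metal-binding genes of B16-F10 cells are described here as a set of 40 genes, chosen by name from the mouse symbols of the count table: enzymes that remove reactive oxygen species, the thioredoxin and glutathione systems that recharge them, the NRF2 regulator with some of its targets, and the genes of iron storage, iron uptake and metallothioneins. Of the 40 genes, 39 matched a row among the 18324 gene rows of the table, and 38 had enough counts to be tested among 11324 genes. *Gpx7* matched no row, so only its upstream sequence was analysed here, and *Hmox2* was below the minimum count. B16-F10 is a mouse melanoma line whose cells make melanin in varying amounts. Cultured cells were sorted by fluorescence-activated cell sorting, on the light that melanin scatters, into a high-pigmented population (HPC, as the labels name it) and a low-pigmented one (LPC), and 3′-end RNA sequencing was performed on 3 libraries of each. Both populations were the same line in the same medium, and the labels name no genetic change or added agent in either. Each HPC library shares a suffix in its title with 1 LPC library, and these are called pairs 1 (16-9-15), 2 (18-8-14) and 3 (1-9-14). The labels do not say what the suffix marks, nor whether libraries came from separate cultures, so p values measure the spread between these libraries, which may be technical.

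Melanin is built by oxidising tyrosine, and its quinone intermediates and the hydrogen peroxide formed on the way are oxidants that pigment cells must contain. Superoxide dismutases turn superoxide into hydrogen peroxide, which catalase, glutathione peroxidases and peroxiredoxins reduce to water. Glutathione and thioredoxin supply the electrons and are recharged by reductases that draw on NADPH. The transcription factor NRF2 (gene *Nfe2l2*), held back by KEAP1 until oxidants or electrophiles release it, binds antioxidant response elements near many of these genes. Ferritin stores iron out of reach of peroxide, and metallothioneins bind zinc and copper under the control of the factor MTF1 at metal response elements.

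The libraries held 3819605 to 7311131 gene counts. Those of pair 2 stood apart: the single row RP23-81C12.3 took 53.9% of the HPC and 27.1% of the LPC counts there, against 3.54% to 5.03% in the other 4 libraries. After normalisation 1 count was worth 0.582 CPM (counts scaled to the normalised library size) in the HPC library of pair 2 and 0.105 to 0.286 CPM in the other 5. All 7 melanocyte markers checked were measured. Their summed normalised counts were 4443 to 20733 CPM in HPC and 6189 to 17282 CPM in LPC libraries, so the lowest sum was in an HPC library. Leukocyte, fibroblast and endothelial markers (3, 3 and 1 measured) summed to at most 27.9, 33.2 and 11.6 CPM, each at its highest in the HPC library of pair 2. Their part in the results below was not tested. Fold changes are given with all libraries and, where leaving out pair 2 turned or clearly moved them, without it, from a fit to pairs 1 and 3 with the pair as a block.

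Sequences just upstream of the members were searched for the short cores of the response elements named above. A core match is not proof of an element, and elements farther away were not searched. The promoter table of RefSeq (GRCm38.p6) held a window for 36 of the 40 genes, with none for *Prdx6*, *Gclc*, *Gsr* and *Hmox1*, and the 250 bases before each start were searched on both strands. The antioxidant response core TGACNNNGC was found for 8 of the 36 genes (22.2%), against 11.5% of 27025 genes with a window. Each stretch below is printed on the strand on which the core reads forward, with the core in capitals. They are shown because these genes cover most of the roles described below, from *Nfe2l2* itself to the NADPH-making enzyme gene *G6pdx*. A gene counts as a match if any of its windows has the core. *Txnrd1* has 3 windows, for different transcript starts, and *Mgst1* has 2. The core lies in 1 window of each. For *Txnrd1*, *Mgst1* and *G6pdx* the core is inside the gene, downstream of its first annotated start (GENCODE vM21).
Sod1, chr16:90220696-90220724, minus strand: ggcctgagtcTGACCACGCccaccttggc
Prdx1, chr4:116685456-116685484, minus strand: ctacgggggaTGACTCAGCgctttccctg
Txnrd1, chr10:82859104-82859132, minus strand: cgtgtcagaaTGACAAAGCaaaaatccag
Gclm, chr3:122245413-122245441, minus strand: tcgtgagagtTGACGGTGCgcccgggagc
Mgst1, chr6:138140461-138140489, minus strand: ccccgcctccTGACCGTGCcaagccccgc
Nfe2l2, chr2:75704885-75704913, minus strand: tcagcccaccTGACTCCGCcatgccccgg
Mt2, chr8:94172529-94172557, plus strand: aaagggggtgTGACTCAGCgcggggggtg
G6pdx, chrX:74428919-74428947, plus strand: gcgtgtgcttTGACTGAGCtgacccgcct

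The metal response core, searched as TGCACNC and TGCGCNC on both strands, was found for 12 of the 36 genes (33.3%), against 23.8% of all genes with a window. *Mt1* had 1 match and *Mt2* had 3. These are printed because the 2 metallothioneins were both higher in pair 3 than in pair 1, as described below. The core was also found for *Gstm1* and *G6pdx*, which passed as higher in pair 3. It was found too for *Txnip*, *Srxn1*, *Tfrc* and *Gclm*, which passed as lower. *Prdx4*, *Txnrd2* and *Glrx* had the core and did not pass, and *Gpx7*, the last of the 12, had no counts to compare. Whether the cores have a part in these differences was not tested. The capitals mark the core.
Mt1, chr8:94179056-94179082, plus strand: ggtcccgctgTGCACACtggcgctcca
Mt2, chr8:94172385-94172411, plus strand: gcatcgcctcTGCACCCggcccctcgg
Mt2, chr8:94172480-94172506, plus strand: gcagacccttTGCGCTCagctcctttg
Mt2, chr8:94172558-94172584, minus strand: ggacagagccTGCACACgccctccccc
A match is a description of these letters, and binding was not measured.

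The groups were compared to ask whether cells with more melanin carry more or less transcript for these defences. No member passed the test. In edgeR's quasi-likelihood test over all 6 libraries, 0 of 38 members and 0 of 11324 genes (0%) had an adjusted p under 0.05, and 0 members had an unadjusted p under 0.05, against 38 genes (0.336%) in the whole table. DESeq2 also called 0. The edgeR fit to all 6 libraries with the pairs as a block called 0 members and 0 genes too. In it 0 members had an unadjusted p under 0.05, against 213 genes. SEs given with all libraries come from the fit without the block and include the differences between pairs. For *Prdx1* the SE was 0.53 without the block and 0.12 with it. These counts of 0 do not show that the groups were alike. In simulated counts that kept the differences between pairs, the edgeR fit without the block called none of the genes given a change. The changes given there were larger than the fold change, in this fit, of every member but *Mgst3*. The median log2 fold change among the members was 0.04, with 23 of 38 above 0 (positive values are higher in HPC). Over all genes tested the median was -0.04, and 47.0% were above 0. The members' direction rested on pair 2: the median within-pair difference was -0.16 and -0.03 (log2) in pairs 1 and 3 and 0.22 in pair 2, where the median over all genes was -0.20. Without pair 2, and with the pairs as a block, 11 of 38 members were above 0 and their median was -0.13, against 50.1% of genes and a median of 0.00. This fit has 1 residual degree of freedom and leans on the spread estimated across genes.

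**Figure D1:**
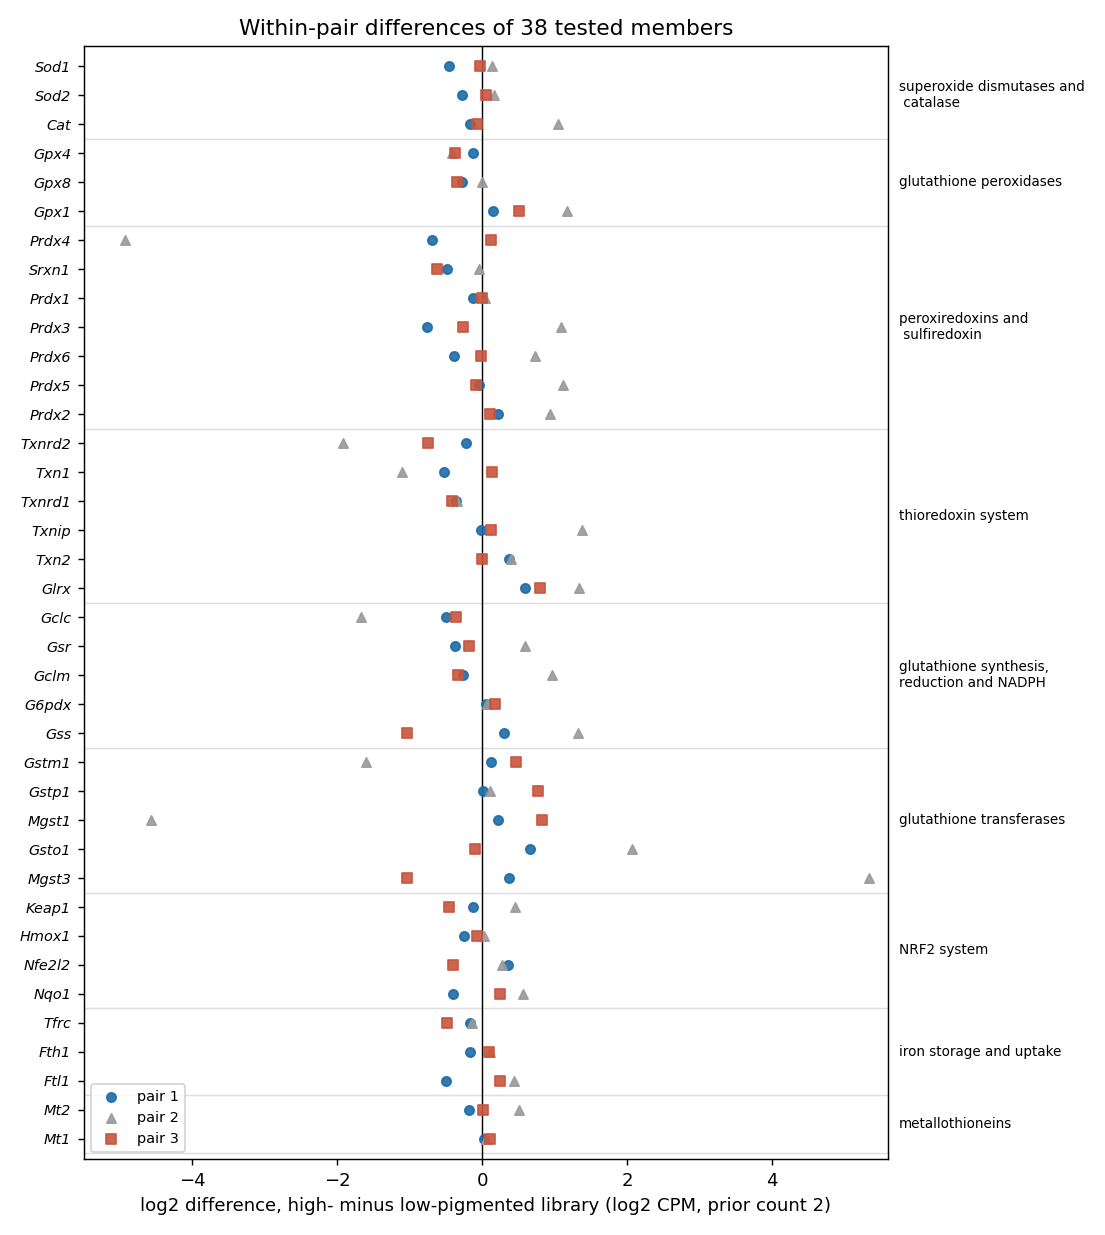
Each row is 1 of the 38 tested members, grouped by role, and each point is the log2 difference in normalised count between the HPC and LPC library of pair 1 (circle), 2 (triangle) or 3 (square), with positive values higher in HPC. Pair 2 holds the points farthest from 0, and *Srxn1*, *Txnrd1* and *Gclc* lie below 0 in every pair while *Gpx1* and *Glrx* lie above it.

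In 13 of 38 members the 3 pairs had the same sign, against 30.1% of all genes tested, so a shared sign was about as frequent as in the table. Of the 13, 7 were higher in HPC in every pair, against 12.9% of genes, and 6 were lower in every pair, against 17.2%. The first were *Gpx1*, *Prdx2*, *Txn2*, *Glrx*, *G6pdx*, *Gstp1* and *Mt1*, and the second were *Gpx4*, *Srxn1*, *Txnrd1*, *Txnrd2*, *Gclc* and *Tfrc*. The 3 values of each group did not overlap for 3 members, against 5.74% of genes, namely *Gpx1* and *Glrx*, with the HPC values above (2.43% of genes), and *Gclc*, with them below (3.31%).

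*Srxn1* was the member that passed when pair 2 was left out. It encodes sulfiredoxin, which repairs peroxiredoxins that peroxide has over-oxidised, and lies at chr2:152105516-152111376 on the plus strand (GENCODE vM21, GRCm38). Its normalised counts were 438, 294 and 237 CPM in HPC and 613, 302 and 365 CPM in LPC libraries, in the order of pairs 1, 2 and 3 used throughout. The LPC library was higher in pairs 1 and 3, while in pair 2 the libraries were nearly level, and the ranges of the groups overlapped. The means were 323 ± 103 and 427 ± 165 CPM (SD, n = 3 each), and the log2 fold change was -0.40 ± 0.43 (SE; edgeR, adjusted p 0.9996). With the pairs as a block and without pair 2 it was -0.56 ± 0.12 (SE; edgeR, adjusted p 0.0219), where 155 of 11906 genes passed (1.3%), 44 of them lower in HPC (0.37%). With single libraries left out of the unblocked fit, the fold change ran from -0.70 (without HPC of pair 1) to -0.04 (without LPC of pair 1). Over all settings tried its adjusted p lay between 0.0219 and 1.000, and with the block and all 6 libraries it was 0.927. So 1 of 38 members passed in this fit, and 8 of 38 had an unadjusted p under 0.05, against 1446 of 11906 genes.

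The thioredoxin reductase gene *Txnrd1*, with the core printed above at 1 of its 3 windows, differed by similar amounts in the 3 pairs. Its normalised counts were 121, 115 and 79.0 CPM in HPC and 156, 147 and 105 CPM in LPC libraries. The LPC library was higher each time, with log2 differences of -0.37, -0.35 and -0.41, while the ranges overlapped because pair 3 was lower in both groups. The log2 fold change was -0.37 ± 0.38 (SE; edgeR, adjusted p 0.9996) and -0.40 ± 0.15 in the blocked fit to pairs 1 and 3 (adjusted p 0.25). With all libraries and the block it was -0.38 ± 0.18 (SE, edgeR, adjusted p 0.927), so *Txnrd1* passed in none of these fits.

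*Gclc* encodes the catalytic subunit of glutamate-cysteine ligase, the rate-limiting enzyme of glutathione synthesis. It had 32.9, 15.7 and 38.8 CPM in HPC and 46.6, 50.9 and 50.0 CPM in LPC libraries. The groups did not overlap, and the LPC values lay close together (49.2 ± 2.25 CPM, SD, n = 3). The log2 fold change was -0.74 ± 0.46 (SE; edgeR, adjusted p 0.9996), and -0.44 ± 0.20 in the blocked fit to pairs 1 and 3 (adjusted p 0.361). With all libraries and the block it was -0.82 ± 0.38 (SE, edgeR, adjusted p 0.927). The modifier subunit gene *Gclm* did not follow *Gclc*. *Gclm* had 172, 164 and 112 CPM against 206, 84.3 and 141 CPM, lower in HPC in pairs 1 and 3 and higher in pair 2. Its log2 fold change was 0.05 ± 0.44 with all libraries and -0.31 ± 0.14 without pair 2 (SE; adjusted p 0.38).

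**Figure D2:**
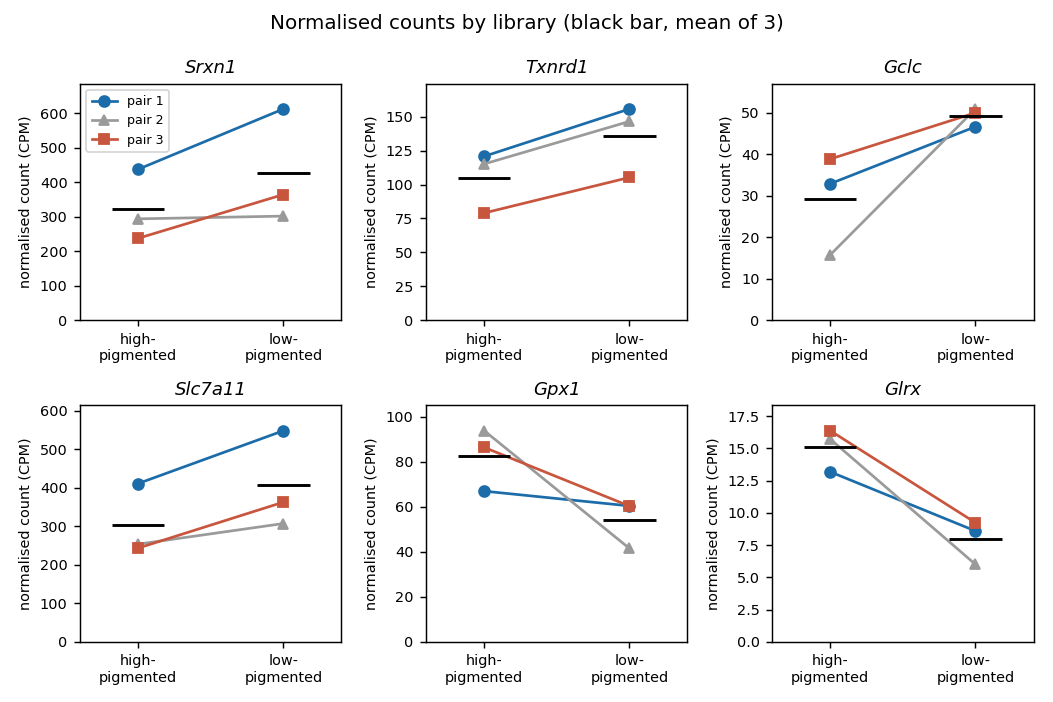
Normalised counts (CPM, axes from 0) of 5 members and the cystine transporter gene *Slc7a11* in the HPC and LPC library of each pair, joined by a line, with the mean of the 3 libraries as a black bar. The lines of *Srxn1*, *Txnrd1*, *Gclc* and *Slc7a11* rise towards the LPC library, with *Srxn1* almost level in pair 2 (294 and 302 CPM), and those of *Gpx1* and *Glrx* descend.

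Of the remaining genes of glutathione synthesis, reduction and NADPH supply, *Gss*, the second enzyme of the synthesis, went in opposite directions. It had 21.3, 43.7 and 9.70 CPM in HPC against 17.2, 17.2 and 20.4 CPM in LPC libraries. Among the HPC libraries, pair 2 was high and pair 3 low. Glutathione reductase (*Gsr*) lay between 28.9 and 54.5 CPM in the 6 libraries. Its log2 fold change was -0.01 ± 0.44, or -0.29 ± 0.20 without pair 2 (SE). *G6pdx*, the first enzyme of the NADPH-making pentose phosphate pathway, differed by 0.05, 0.06 and 0.18 (log2) within pairs 1, 2 and 3.

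Among the peroxide-removing enzymes, *Gpx1*, the cytosolic glutathione peroxidase, was higher in HPC in every pair but did not pass. It had 66.9, 93.7 and 86.3 CPM in HPC and 60.3, 41.5 and 60.3 CPM in LPC libraries, with no overlap and with the widest gap in pair 2. The log2 fold change was 0.60 ± 0.37 (SE; edgeR, adjusted p 0.9996), and 0.33 ± 0.18 without pair 2 (adjusted p 0.493). With all libraries and the block it was 0.61 ± 0.28 (SE, edgeR, adjusted p 0.927). *Gpx4*, which reduces lipid peroxides in membranes, had 146, 300 and 109 CPM against 160, 400 and 142 CPM. Its pair 2 libraries were the highest in both groups, and the LPC library was higher in each pair. The log2 fold change was -0.34 ± 0.57 (SE), and 0.29 once LPC of pair 2 was left out. *Gpx8*, an enzyme of the endoplasmic reticulum, had 89 to 127 counts in each library of pairs 1 and 3 and 0 counts in both of pair 2. The 0 counts allow up to 1.75 and 0.858 CPM (3 counts, counting error only), against 10.4 to 18.8 CPM elsewhere.

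*Prdx1*, the gene of a cytosolic peroxiredoxin, had 1510, 862 and 2354 CPM in HPC and 1652, 838 and 2360 CPM in LPC libraries. The 2 libraries of a pair were nearly equal and the pairs were far apart, and the fold change between groups was -0.04 ± 0.53 (log2 ± SE), or -0.08 ± 0.11 without pair 2. The other peroxiredoxins, cytosolic *Prdx2*, mitochondrial *Prdx3* and *Prdx5*, endoplasmic *Prdx4* and the 1-cysteine enzyme gene *Prdx6*, had fold changes between -0.73 and 0.30 (log2), and between -0.53 and 0.15 without pair 2. *Prdx4* had 0 counts in HPC of pair 2, against 35 in its LPC partner. *Sod1*, the cytosolic superoxide dismutase, had 582, 780 and 926 CPM against 796, 708 and 949 CPM, and the groups overlapped. Its fold change was -0.10 ± 0.36 (log2 ± SE), or -0.25 ± 0.13 without pair 2. The mitochondrial *Sod2* and catalase (*Cat*) differed by -0.05 ± 0.37 and 0.18 ± 0.44 (log2 fold change ± SE). Without pair 2 both were at -0.13, so that *Cat* turned.

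Within the thioredoxin system the directions were mixed, with 3 of 6 members above 0. *Glrx*, the cytosolic glutaredoxin that removes glutathione from protein thiols, had 13.2, 15.7 and 16.4 CPM in HPC and 8.59, 6.003 and 9.24 CPM in LPC libraries. The groups did not overlap, and the means were 15.1 ± 1.68 and 7.94 ± 1.71 CPM (SD, n = 3 each). These rest on 21 to 140 counts per library, and the log2 fold change of 0.92 ± 0.65 (SE; edgeR, adjusted p 0.9996) did not pass, nor did 0.72 ± 0.35 without pair 2 (adjusted p 0.418). The mitochondrial reductase gene *Txnrd2* had 10.2, 4.07 and 4.79 CPM against 12.1, 16.3 and 8.29 CPM, with 7 counts in HPC of pair 2 and a log2 fold change of -0.92 ± 0.77 (SE), or -0.52 ± 0.41 without pair 2. Thioredoxin itself (*Txn1*) had 608, 98.9 and 405 CPM against 874, 214 and 369 CPM. It was highest in pair 1 and lowest in pair 2 in both groups, and its fold change was -0.39 ± 0.73 (log2 ± SE), or -0.20 ± 0.14 without pair 2. The mitochondrial *Txn2* had a log2 fold change of 0.27 ± 0.40 (SE), or 0.18 ± 0.18 without pair 2.

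The glutathione transferases, which join glutathione to electrophiles such as quinones, had positive fold changes in 5 of 5 members, with a median of 0.54 (log2), against 47.0% of all genes, and in 4 of 5 with a median of 0.30 without pair 2, against 50.1%. In the blocked fit to all 6 libraries, 3 of 5 were positive with a median of 0.30, against 5000 of 11324 genes, and *Gstm1* (-0.28) and *Mgst1* (-0.26) lay below 0. *Gstm1* was at 0.01 and *Mgst1* at 0.54 without the block. None passed in any of these fits. *Gstp1* had 224, 112 and 416 CPM in HPC and 222, 104 and 244 CPM in LPC libraries, so that only pair 3 showed a wide gap, and the ranges overlapped. Its log2 fold change was 0.40 ± 0.56 (SE), and -0.18 once HPC of pair 3 was left out. *Gsto1* had 23.9, 46.6 and 19.6 CPM against 15.0, 10.9 and 21.0 CPM, higher in pairs 1 and 2 but not in pair 3. Its log2 fold change was 0.93 ± 0.57, and 0.26 ± 0.28 without pair 2 (SE). *Mgst3* had 15, 23 and 2 counts against 11, 0 and 8, too few to compare. *Mgst1* had 0 counts in the HPC library of pair 2 and 27 in its partner.

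*Nfe2l2*, the NRF2 gene, and its inhibitor gene *Keap1* had fold changes of 0.10 ± 0.39 and -0.14 ± 0.45 (log2 ± SE), and their within-pair signs were mixed. Without pair 2 they were at -0.04 ± 0.19 and -0.31 ± 0.19, so that *Nfe2l2* turned. The haem-degrading enzyme gene *Hmox1*, an NRF2 target, had 221, 359 and 125 CPM against 264, 354 and 131 CPM. The 2 libraries of each pair lay close together, and the fold change was -0.09 ± 0.53 (log2 ± SE), or -0.18 ± 0.14 without pair 2. The quinone reductase gene *Nqo1* had 1 to 41 counts per library. *Hmox2*, the constitutive haem oxygenase, had 5, 6 and 7 counts against 5, 0 and 12.

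Ferritin heavy chain (*Fth1*) had 1472, 2087 and 1900 CPM in HPC and 1653, 1941 and 1778 CPM in LPC libraries. The groups overlapped fully, and the log2 fold change was 0.02 ± 0.35 (SE). The light chain (*Ftl1*) lay between 883 and 1720 CPM, with 0.08 ± 0.40 (log2 ± SE). Without pair 2 both chains turned, to -0.05 ± 0.12 for *Fth1* and -0.14 ± 0.15 for *Ftl1*. The transferrin receptor gene *Tfrc*, which brings iron into the cell, was lower in HPC in each pair, with log2 differences of -0.16, -0.14 and -0.49, and did not pass (-0.25 ± 0.42, SE). *Mt1* and *Mt2* differed between the groups by 0.08 ± 0.54 and 0.08 ± 0.75 (log2 fold change ± SE), and without pair 2 by 0.06 ± 0.12 and -0.09 ± 0.12.

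Many members differed between pairs within the same sorted population. Pairs 1 and 3 were compared within the blocked fit to those 4 libraries, a comparison added after the values were seen. No pair was repeated, so the HPC and LPC library of a pair stood in for its replicates. The p values of this comparison therefore measure the spread within pairs, not that between repeats of a pair. They rest on 1 residual degree of freedom. Of 38 members, 17 passed an adjusted p under 0.05, against 3035 of 11906 genes (25.5%). Of the 17, 8 were higher in pair 3, against 11.8% of genes, and 9 were lower, against 13.7%. In the blocked fit to all 6 libraries 0 members and 0 of 11324 genes passed. There 9 members had an unadjusted p under 0.05, against 948 genes. The 17 calls thus hold for the fit to pairs 1 and 3 alone. The difference between pairs 3 and 1 was larger in size than that between groups for 32 of the 38 members (84.2%), as for 67.5% of genes. What differed between the pairs is not given in the labels and was not tested.

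Both metallothioneins were higher in pair 3 than in pair 1. *Mt2* (chr8:94172664-94173568) had 497, 772 and 2243 CPM in HPC and 562, 543 and 2225 CPM in LPC libraries. Its neighbour *Mt1* (chr8:94179082-94180327) had 316, 438 and 889 CPM against 310, 420.5 and 821 CPM. Both libraries of pair 3 lay above the other 4 for both genes, whatever the pigment group. Their log2 fold changes in pair 3 against pair 1 were 2.08 ± 0.12 and 1.45 ± 0.12 (SE; edgeR, adjusted p 1.52e-12 and 1.33e-09). These small p values, and those of the genes below, reflect how alike the libraries of a pair were, with no repeat of either pair.

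*Txnip* was lower in pair 3, by the largest fold change of the 38 members. It encodes the thioredoxin-interacting protein, an arrestin that binds thioredoxin and limits glucose uptake. Its values were 269, 70.4 and 21.0 CPM in HPC and 273, 26.9 and 19.3 CPM in LPC libraries. Pair 1 was highest in both groups, and the fold change in pair 3 against pair 1 was -3.75 ± 0.17 (log2 ± SE; edgeR, adjusted p 1.64e-14). The transferase genes *Gstm1* and *Mgst1* were higher in pair 3, by 1.77 ± 0.18 and 1.51 ± 0.21 (log2 ± SE). *Gstm1* had 36.0, 19.8 and 138 CPM against 32.9, 60.9 and 100.0 CPM, and *Mgst1* had 28.5, 0 and 99.5 CPM against 24.5, 7.72 and 56.2 CPM. *G6pdx* (0.89), *Prdx1* (0.58), *Gstp1* (0.52) and *Sod1* (0.46) completed the genes higher in pair 3. Besides *Txnip*, the genes lower in pair 3 were *Hmox1* and *Txn1* (-0.92 each), *Srxn1* (-0.82), *Tfrc* (-0.74), *Gsr* (-0.64), *Txnrd1* (-0.59), *Gclm* (-0.58) and *Txn2* (-0.56).

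**Figure D3:**
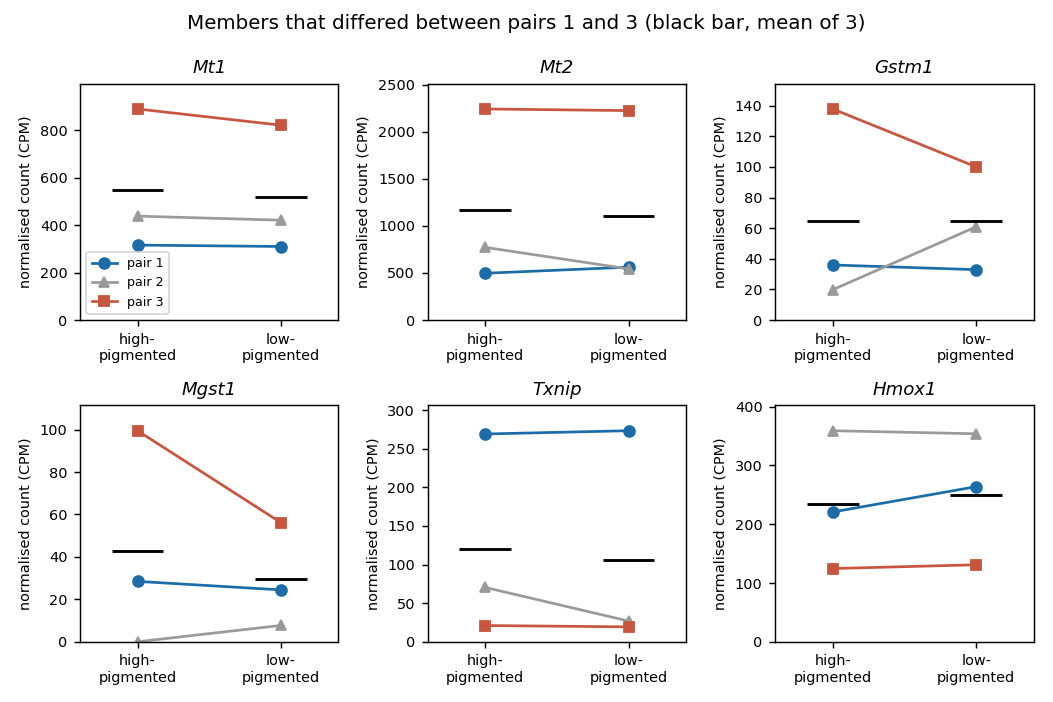
Normalised counts (CPM, axes from 0) of 6 members in the HPC and LPC library of each pair, joined by a line, with the mean of the 3 libraries as a black bar. For *Mt1* and *Mt2* both pair 3 libraries lie above the other 4, for *Txnip* both pair 1 libraries do, and the lines of *Mt1* and *Hmox1* are almost level between pigment groups.

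**Figure D4:**
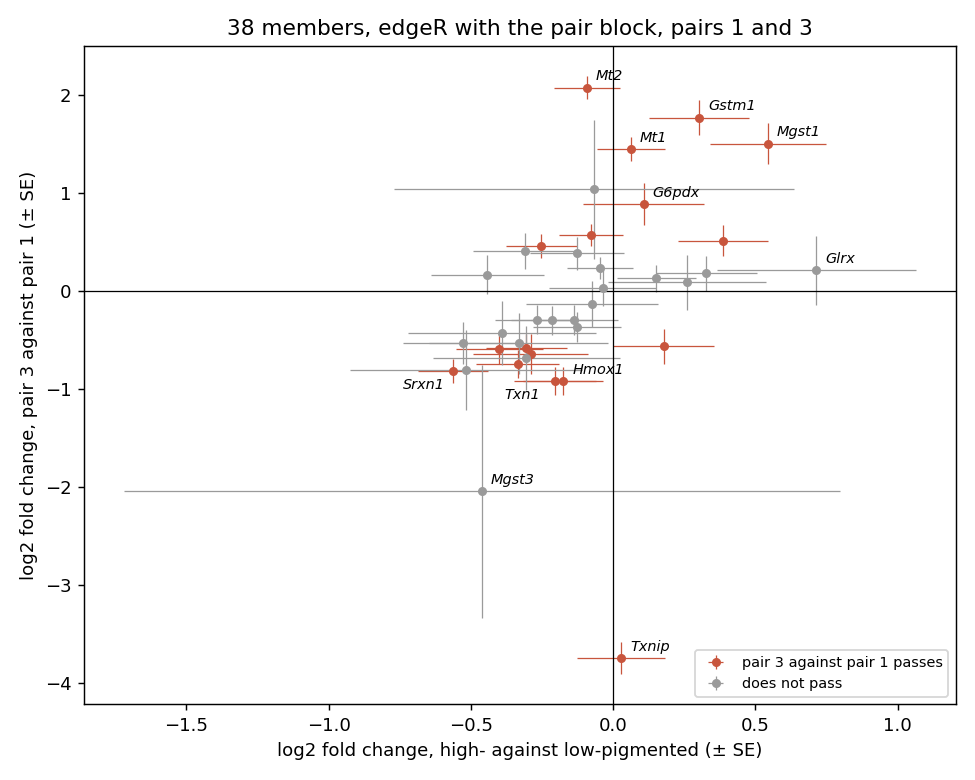
Each point is 1 of 38 members, with its log2 fold change between pigment groups on the horizontal axis and between pairs 3 and 1 on the vertical axis, and bars of 1 SE, from the edgeR fit to pairs 1 and 3. The 17 members that passed in the comparison of pairs are in red, the vertical spread runs from -3.75 (*Txnip*) to 2.08 (*Mt2*), and *Mgst3*, with its few counts, has the widest error bars.

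Other genes of the same pathways, listed beside the members and likewise chosen with earlier results known, gave 0 calls in the fit to all libraries. Without pair 2 and with the block, 3 of 27 NRF2 partners and targets passed, 1 higher and 2 lower, against 0.932% and 0.37% of all genes. *Slc7a11*, the cystine importer that feeds glutathione synthesis, had 411, 254 and 243.5 CPM in HPC and 549, 307 and 363 CPM in LPC libraries. The LPC library was higher in each pair, and the fold change was -0.51 ± 0.12 (log2 ± SE; edgeR, adjusted p 0.0413), against -0.42 ± 0.41 (adjusted p 0.9996) with all libraries and no block. With all libraries and the block it was -0.42 ± 0.15 (log2 ± SE, edgeR, adjusted p 0.927). *Adh7*, an alcohol dehydrogenase gene, fell by 0.91 ± 0.23 on the log2 scale (adjusted p 0.0459) and *Ephx1*, the microsomal epoxide hydrolase gene, rose by 0.88 ± 0.18 (adjusted p 0.0102), both with the opposite sign in pair 2. There *Adh7* had 2 counts in the HPC library against 0, too few to compare, and *Ephx1* had 23 against 130 counts.

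Of 34 genes of iron, haem and other metals, 1 passed without pair 2 and with the block. It was lower in HPC, against 1.3% of all genes that passed there and 0.37% that passed as lower. *Cp*, the gene of ceruloplasmin, a copper-carrying ferroxidase, had 41.7, 0 and 7.25 CPM in HPC and 81.3, 41.7 and 20.7 CPM in LPC libraries. The LPC library was higher in each pair, and the fold change was -1.21 ± 0.22 (log2 ± SE; edgeR, adjusted p 0.00482), against -1.53 ± 1.23 (adjusted p 0.9996) with all 6 libraries and no block. With all 6 libraries and the block it was -2.22 ± 1.11 (log2 ± SE, edgeR, adjusted p 0.927). None of 27 genes of glutathione metabolism and none of 27 of the thioredoxin fold, superoxide and methionine sulfoxide list passed. The genes with the smallest p there were *Gstm4* (-1.24 ± 0.98) and *Lap3* (-0.56 ± 0.49), and *Sesn3* (1.76 ± 0.63) and *Sesn1* (1.71 ± 0.99), given as log2 fold change ± SE with all libraries. Without pair 2 they were at -0.43 ± 0.67, -0.23 ± 0.21, 0.93 ± 0.30 and 0.72 ± 0.45, in the same order.

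Some counts are uncertain because reads can fall on other genes. Runs of 100 or more nucleotides at 95% identity or above join 13 members to another row of the table, namely *Sod1*, *Sod2*, *Prdx1*, *Prdx2*, *Prdx5*, *Txnrd2*, *Gclm*, *Gss*, *Gstp1*, *Hmox2*, *Fth1*, *Ftl1* and *G6pdx*. *Gpx4*, *Prdx6*, *Txn1*, *Txnip*, *Gstm1*, *Keap1* and *Mt2* share such runs only with genes that have no row in the table. Whole transcripts were searched, so a run need not lie where the reads fall. Exons of 11 members overlap another gene, among them *Txnip* and *Mt2* on the opposite strand. *Srxn1*, *Txnrd1*, *Gclc*, *Gpx1*, *Glrx* and *Mt1* had neither.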

How the data were processed

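RNA of sorted B16-F10 cells was sequenced in 6 libraries with Lexogen's QuantSeq 3′ forward kit on an Illumina NextSeq, per the labels' protocols. Such reads come from near the polyadenylated end, so counts do not scale with transcript length, and they depend on how that end is annotated. The deposited table holds raw counts by gene, made by the authors with HTSeq, per the table's name and tally rows; STAR and GRCm38 are named in the submitters' processing notes. Counting mode, use of strand, annotation and versions are not given in the sources used here. Molecular identifiers are not mentioned, so counting intervals cover counting error only.

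Genes were matched by mouse symbol, not by the human symbols of the second column. Tally rows (no gene, 12.4% to 29.5% of tallied reads; several genes, 0.487% to 2.51%) were left out; Wilson 95% intervals of 24 library shares were within 0.05 percentage points. Genes passing filterByExpr (minimum count 10) were tested with edgeR 4.0.16 (TMM, robust quasi-likelihood test) in R 4.3.3, with 2 groups and no covariate, and adjusted by Benjamini-Hochberg over all genes. CPM use TMM-scaled library sizes, within-pair differences log2 CPM with a prior count of 2, and SEs come from the test statistic. Alternatives were the replicate block, leaving out pair 2, leaving out each library, DESeq2 1.42.0, its size factors, no filter, and dropping the rows RP23-81C12.3, mt-Rnr1 and mt-Rnr2. Libraries of a pair deviated together from their group means (correlations of 0.466, 0.316 and 0.422 across genes, each above 0.1), so the title suffix was taken to pair them. Every 2 libraries of a group differed beyond sampling noise (lowest chi-square/df 57.1). Fits were tested on simulated counts that kept the differences between pairs. The fit without the block called none of the genes given a change. The blocked fits recovered most of them at low dispersion and few to some at high dispersion. Apart from the given changes, both libraries of a simulated pair had the same expected shares, unlike pair 2 here. The recovery by the blocked fits may therefore not carry over to these data. Shared sequence was searched with BLAST 2.17.0 in GENCODE vM21 transcripts. Figures were drawn with matplotlib 3.10.9.

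The members and lists were chosen with earlier results of these data known. Values in every library are given for members that passed in the fit to all libraries, with the block, or with the block and without pair 2, for the 10 with the smallest p, for those whose groups did not overlap, for the highest of each role and for those not tested; *Txnip*, *Mt1*, *Gstm1* and *Mgst1* were added after their values were seen. From each list of other genes, those that passed in 1 of these fits are named, otherwise the 2 with the smallest p.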

Additional observations from a re-analysis of the deposited data

Results flagged for a closer look

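Reads outside the gene comparisons were present in every library. Those overlapping no annotated gene reached 29.5% of tallied reads, and those overlapping several genes reached 2.51%.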

How the results depend on the processing

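Of 18 members with values in every library and a test, 7 kept their direction under each of 13 alternatives (*Gpx1*, *Txnrd1*, *Txnrd2*, *Srxn1*, *Gclc*, *Gsto1* and *Glrx*), though not their size: with each library left out *Srxn1* ran from -0.70 to -0.041 (log2), *Txnrd2* from -1.45 to -0.66 and *Gsto1* from 0.47 to 1.20. The replicate block with all 6 libraries called 0 genes, as did the other settings except the block without pair 2, which called 155 genes and 1 member; the cause was not tested. Members above 0 numbered 23 with all libraries, 11 without pair 2 with or without the block, and 13 to 23 when each library was left out. Their median ranged from -0.18 (without the LPC library of pair 2) to 0.21. Pair 3 against pair 1 gave 3035 genes and 17 members, and 0 of both with all 6 libraries.

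Directions turned for these of the 18 members without pair 2, with the block and without it, in log2: *Gclm* -0.31 and -0.30, *Gss* -0.39 and -0.29, *Mgst3* -0.46 and -0.016, *Fth1* -0.046 and -0.035, *Mt2* -0.092 and -0.033. Among the other members, *Cat*, *Prdx3*, *Prdx5*, *Prdx6*, *Nfe2l2*, *Nqo1* and *Ftl1* also turned to lower in HPC without pair 2, with the block. With each library left out, the fold changes ranged from -0.28 to 0.053 for *Sod1*, -0.87 to 0.29 for *Gpx4*, -0.46 to 0.35 for *Prdx1*, -0.95 to 0.36 for *Txn1*, -0.22 to 0.41 for *Gclm*, -0.24 to 0.81 for *Gss*, -0.18 to 0.75 for *Gstp1*, -0.53 to 0.245 for *Hmox1*, -0.082 to 0.15 for *Fth1* and -0.83 to 1.09 for *Mt2*. The HPC library of pair 2 had the coarsest scale, with 1 count worth 0.582 CPM.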
